A study of Mus musculus with 8 samples.

Results

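Wt1 and 7 genes of the podocyte, the cell that forms the filtering slits of the glomerulus, were followed through the cell types of the developing mouse kidney with and without Trim28. The 8 genes were Wt1, Nphs1, Podxl, Synpo, Ptpro, Clic5, Magi2 and Rhpn1. They were picked by symbol, each matched a single row, and they are 8 of the 32285 genes counted. The data came from a single pool of kidney cells, dissociated with a cold-active protease at embryonic day 17.5 by the labels (the study's methods give a day later), in which each animal carried its own multiplexing tag. The tag list named mice 1 and 2 as "ko" and mice 3 and 4 as "wt", and the sample labels give the pool as male Trim28Δ/Δ and Trim28f/f kidneys, so that 2 embryos stood in each group. All 4 carried Trim28 alleles flanked by loxP sites on a C57BL/6 background, and the Trim28Δ/Δ embryos also carried a Six2-EGFP/cre transgene, whose Six2 promoter drives Cre in nephron progenitors, so that stroma, vessels and ureteric bud derivatives were not targeted. Since the transgene was present in the Trim28Δ/Δ group alone, effects of Trim28 loss and of the transgene cannot be told apart here. The 6 bulk samples of newborn kidney in the same series were not analysed here.

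Wt1 encodes a zinc finger transcription factor that nephron progenitors need to survive and differentiate and that podocytes keep throughout life. The slit diaphragm is the junction between the foot processes of neighbouring podocytes. Nphs1 encodes nephrin, the adhesion protein that spans the slit, and Magi2 a scaffold that binds nephrin from inside the cell. Podxl encodes podocalyxin, the negatively charged sialoprotein of the podocyte surface, and Ptpro a receptor tyrosine phosphatase of the same apical membrane. Synpo encodes synaptopodin, which binds actin in the foot processes, and Clic5 a chloride intracellular channel protein that works with ezrin. Rhpn1 encodes a protein that podocytes need for their normal foot processes.

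Of 7452 cells assigned to the 4 mice (1472, 1652, 2568 and 1760 in mice 1 to 4), with a median of 16793 UMIs per cell, 22 of 25 clusters were named from marker genes as 16 cell classes. The 8 genes and 4 related gene lists were left out of the genes used for clustering. Podocyte-like cells (133 in all, 28 and 18 in the Trim28Δ/Δ mice and 53 and 34 in the Trim28f/f mice) showed all 9 podocyte markers at higher levels than other cells, from 1.57-fold for Npnt to 146-fold for Tdrd5. Early podocyte-like cells (372 in all, led by Pcp4, Lsp1 and Tagln) had 6 of 7 markers at a higher mean level than other cells, while Olfm3 was near 0 at 0.142 CPM. In podocyte-like cells the same 7 markers summed to 17663, 16630, 16236 and 26750 CPM in mice 1 to 4. In early podocyte-like cells the highest of them, Lsp1, averaged 956 CPM, so their sum does not set this class apart from podocyte-like cells. At a finer clustering resolution that class split into 105 cells that kept the name and 267 that did not. Nephron progenitor-like cells (NPC-like, 706 in all) formed a cluster led by Cited1 and another in which Six2 and Eya1 led together with Tmem100 and Wnt4, markers of the next stage, the pretubular aggregate. Trim28 was lower in the Trim28Δ/Δ NPC-like cells, at 34.6 and 27.7 CPM in mice 1 and 2 against 146 and 172 CPM in mice 3 and 4 (log2 change -2.37, SE 0.21, edgeR adjusted p = 0.00100). Stroma-like cells, which Cre does not target, held Trim28 at 102 and 94.3 against 88.5 and 118 CPM. The UMIs of this 3′ assay come from the end of the transcript, outside the floxed stretch, so they do not test the deletion itself.

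In the GRCm38 genome Wt1 spans chr2:105126529-105173616 on the plus strand, Nphs1 chr7:30458315-30487223 on the plus strand, and Magi2 chr5:19227036-20704792 on the plus strand in the GENCODE M21 annotation. The RefSeq promoter table of GRCm38.p6 held 4 of the 8 genes: Nphs1, Magi2, Ptpro and Clic5. The promoters of Nphs1 and of both Magi2 starts are shown because nephrin is the core protein of the slit and Magi2 is the one gene of the 8 with a called difference between podocyte-like and NPC-like cells. The stretches of Nphs1 and of the second Magi2 start lie inside the GENCODE spans given above, not upstream of them. Each is read 5′ to 3′ on the plus strand, from 250 bases before to 50 bases after the start, and capitals mark matches to GNGNGGGNG on either strand, a loose form of the binding motifs GCGTGGGAG and GCGGGGGCG of WT1 and the related EGR factors.
Nphs1, chr7:30459808-30460107: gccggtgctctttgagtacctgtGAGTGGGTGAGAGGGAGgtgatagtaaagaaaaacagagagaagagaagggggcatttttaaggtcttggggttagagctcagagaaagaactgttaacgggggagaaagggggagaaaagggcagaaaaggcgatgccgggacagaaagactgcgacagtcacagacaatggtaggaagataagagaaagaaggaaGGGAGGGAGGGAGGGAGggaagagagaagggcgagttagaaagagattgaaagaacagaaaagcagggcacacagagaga
Magi2 first start, chr5:19226796-19227095: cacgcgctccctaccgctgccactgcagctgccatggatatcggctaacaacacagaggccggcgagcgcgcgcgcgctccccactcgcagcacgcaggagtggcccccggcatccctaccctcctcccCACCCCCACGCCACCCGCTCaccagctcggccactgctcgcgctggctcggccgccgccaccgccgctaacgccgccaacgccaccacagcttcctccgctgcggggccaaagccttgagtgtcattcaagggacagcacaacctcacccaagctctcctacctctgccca
Magi2 second start, chr5:19907268-19907567: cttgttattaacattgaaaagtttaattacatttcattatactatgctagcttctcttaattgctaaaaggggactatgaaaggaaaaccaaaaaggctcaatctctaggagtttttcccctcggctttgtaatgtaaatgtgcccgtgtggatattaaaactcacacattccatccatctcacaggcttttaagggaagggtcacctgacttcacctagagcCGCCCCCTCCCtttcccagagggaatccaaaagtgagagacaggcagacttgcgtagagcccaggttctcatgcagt
The loose form matched 5 times in the Nphs1 promoter, 3 times at the first and 2 times at the second Magi2 start (overlapping matches counted), 4 times in Ptpro and 1 time in Clic5. It was also present in 39.6% of the 32851 promoters of the table, and neither strict form, held by 0.472% and 2.91% of them, occurred in these 5. The first Magi2 start was the richest in CpG of these promoters, with 29 CpG and 69.3% GC against 4 CpG and 43.0% GC at the second, and Nphs1 had 6 CpG and 49.7% GC. The homeobox motif TAATTA, in 5.29% of all promoters, occurred among the 5 at the second Magi2 start alone, and the forkhead motif GTAAACA, in 3.65%, in none of them.

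Each of the 8 genes was highest in podocyte-like cells, and in each case every mouse's podocyte-like level lay above every mouse's level in the next class. These levels, in CPM (the UMIs of a gene scaled to a fixed total over all UMIs of the class in a mouse), are a description with no test, because the classes were found in the same cells. Wt1 had the broadest pattern. It averaged 904 ± 241 CPM in podocyte-like cells (SD, n = 4 mice), 436 ± 87.0 in early podocyte-like cells, 292 ± 63.8 in NPC-like cells and 65.4 ± 20.3 in early proximal tubule-like cells, the last below the 81.4 CPM of Wt1 in free RNA. The podocyte-like level of Wt1 was thus only 2.07-fold that of the next class, and the early podocyte-like and NPC-like levels overlapped between mice.

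The slit diaphragm genes were steeper. Nphs1 was at 1085, 650.2, 1190 and 1156 CPM in the podocyte-like cells of mice 1 to 4 and at 24.8, 75.7, 27.9 and 22.7 CPM in their early podocyte-like cells, a 27.0-fold step between the means. Between the same classes the step was 28.4-fold for Magi2. Rhpn1 was at 430 ± 103 CPM in podocyte-like cells (SD, n = 4) and at 6.05 ± 1.86 CPM in early podocyte-like cells, below its level in free RNA (17.4 CPM), so no fold is given. For Ptpro the next class was again early podocyte-like, with a 14.7-fold step, followed closely by immune cells at 31.8 ± 15.3 CPM, and those 2 classes overlapped between mice.

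The other 3 genes were shared with cells outside the nephron. Podxl, at 1916 ± 261 CPM in podocyte-like cells, was next highest in endothelium-like cells (146 ± 28.1 CPM), where podocalyxin is also a known surface protein. Clic5 stood at 772 ± 224 CPM in podocyte-like cells and at nearly the same level in endothelium-like (106 ± 27.6 CPM) and early podocyte-like cells (101 ± 18.4 CPM), with 37.1 ± 4.69 CPM in proximal tubule-like cells. Synpo, at 495 ± 65.0 CPM in podocyte-like cells, followed in mural-like cells, the smooth muscle and pericyte class, at 34.2 ± 11.3 CPM, a level that overlapped that of early podocyte-like cells (29.7 ± 8.90 CPM).

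**Figure D1:**
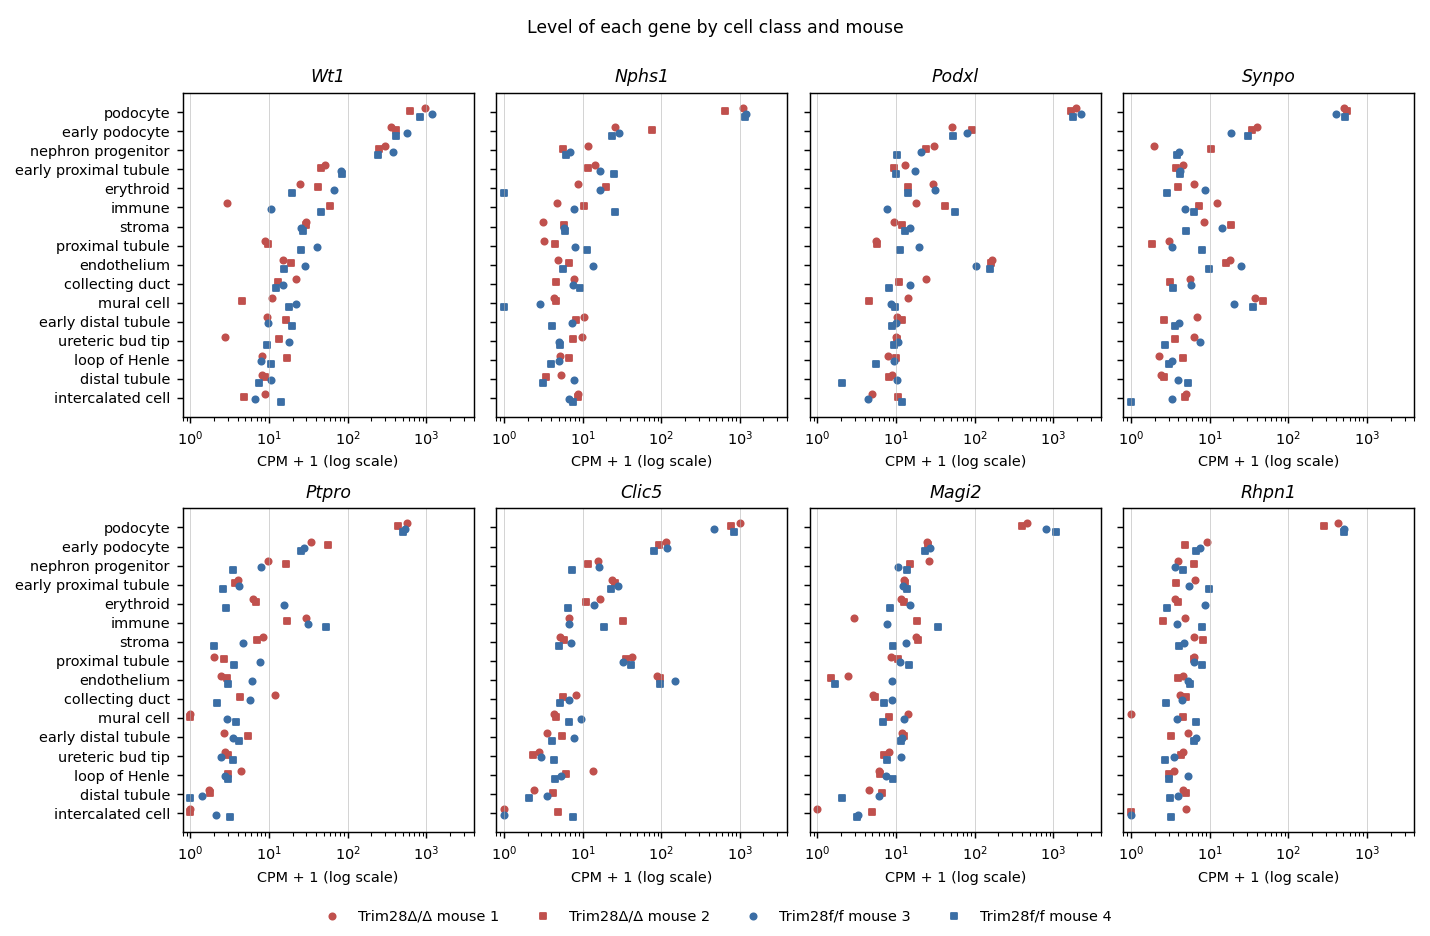
Level of each gene in 16 cell classes, in CPM plus 1 on a log axis, with 1 point for each mouse (red, Trim28Δ/Δ; blue, Trim28f/f) and classes ordered by the mean level of Wt1. All 8 genes peak in podocyte-like cells, and Wt1 alone stays at 242 CPM or more in early podocyte-like and NPC-like cells of every mouse.

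Read as cells, every podocyte-like cell had at least 1 Wt1 UMI in all 4 mice. With each cell thinned to 6800 UMIs, so that cells of unequal depth could be compared, Wt1 was found in 79.6 to 86.2% of early podocyte-like cells and in 65.8 to 84.3% of NPC-like cells. In collecting duct-like cells, which are not a Wt1 lineage, the thinned share was 7.0 to 8.3%, and 17.9 to 19.5% before thinning at median depths of 14658 to 16759 UMIs. Thinned Nphs1 shares were 96.4 to 100% in podocyte-like cells but 7.84 to 29.4% in early podocyte-like cells and 3.45 to 6.12% in NPC-like cells, the last close to the 2.56 to 5.81% of collecting duct-like cells. The median podocyte-like cell, thinned, held all 8 genes in each mouse, the median early podocyte-like cell 2 and the median NPC-like cell 1. Barcodes with 10 to 100 UMIs, taken as free RNA of the pool, held Wt1 at 81.4 CPM, Podxl at 32.2 CPM and the others at 7.27 to 17.4 CPM. Levels at or below these values were read with caution. They are not the background within a cell, since collecting duct-like cells held Wt1 at 14.6 CPM on average and at most 20.9 CPM. Early proximal tubule-like cells held it at 44.7 CPM or more in every mouse.

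Whether these genes differed between Trim28Δ/Δ and Trim28f/f kidneys as a whole was asked first on all cells of a mouse together. Wt1 fell. Its TMM-scaled level was 43.0 and 41.96 CPM in the Trim28Δ/Δ mice against 104 and 103 CPM in the Trim28f/f mice, a log2 change of -1.29 (SE 0.11, edgeR adjusted p = 0.0202, 2 mice against 2). The groups did not overlap and the mice within each group lay close together. Over all genes tested, 0.501% of 16554 were called in either direction and 0.0362% were called lower, and Wt1 was the only one of the 8 called. The call did not hold without mouse 1 (adjusted p = 0.224) or without mouse 2 (adjusted p = 0.101), with log2 changes of -1.30 and -1.27.

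The slit diaphragm genes Magi2 and Nphs1 followed in size but did not pass the test in edgeR, whereas DESeq2 called both (adjusted p = 0.000241 and 0.0353), as did edgeR with no filter beyond 1 count (adjusted p = 0.00214 and 0.0164). Those settings called 4.62% of 17006 and 4.7% of 23797 genes, against 0.501% by edgeR with its filter on low genes. Magi2 was at 12.6 and 11.4 CPM against 22.6 and 23.3 CPM (log2 change -0.93, SE 0.13, adjusted p = 0.0578). Nphs1 was at 17.2 and 11.3 CPM against 28.03 and 22.3 CPM (log2 change -0.83, SE 0.24, adjusted p = 0.187). In both genes the Trim28Δ/Δ mice lay below both Trim28f/f mice, as they did for Rhpn1 and Synpo, an order that 24.4% of all genes tested also showed. Before TMM scaling Synpo overlapped, at 11.5 CPM in mouse 1 against 11.3 CPM in mouse 4.

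Rhpn1 had a log2 change of -0.64 (SE 0.24, adjusted p = 0.282) and Ptpro, Podxl and Synpo of -0.46, -0.33 and -0.31, with adjusted p between 0.443 and 0.588. Clic5 was at 37.1 and 26.2 CPM against 31.7 and 28.8 CPM (log2 change 0.07, SE 0.19). In sums over all cells, fewer cells of a type and less RNA per cell cannot be told apart. The median log2 change of the 8 genes was -0.55, beside -0.02 over all genes tested.

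**Figure D2:**
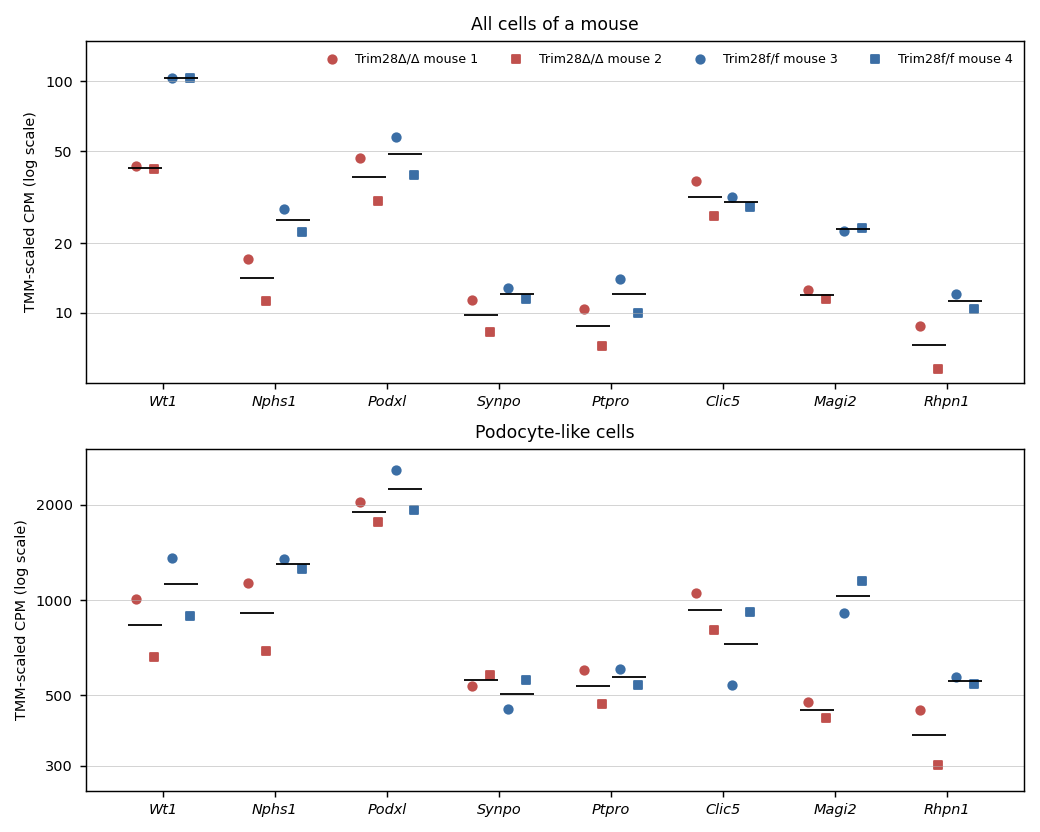
TMM-scaled level of each gene in CPM on a log axis in all cells of a mouse (top) and in podocyte-like cells (bottom), with 1 point for each mouse (red, Trim28Δ/Δ; blue, Trim28f/f) and a line at the mean of each pair. Wt1 separates the pairs in all cells, at 42.5 against 104 CPM, and Magi2, Nphs1 and Rhpn1 separate them in both panels.

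The Wt1 UMIs of a kidney came mostly from NPC-like, early podocyte-like and podocyte-like cells. Such cells made up a smaller share of the recovered cells in the Trim28Δ/Δ mice. The 3 classes together held 8.70 and 9.81% of cells in the Trim28Δ/Δ and 15.7 and 29.5% in the Trim28f/f mice. These shares are of cells with at least 6890 UMIs, 1472, 1652, 2568 and 1760 in mice 1 to 4. A minimum of 2500 UMIs kept 1550, 1710, 3041 and 2171 cells, a larger gain in the Trim28f/f mice. The shares under that minimum are not given here. NPC-like cells differed most, at 3.33% (exact 95% interval 2.47 to 4.38) and 4.60% (3.64 to 5.72) against 7.94% (6.93 to 9.06) and 21.4% (19.5 to 23.4). Early podocyte-like cells made up 3.46 and 4.12% against 5.65 and 6.14%, and podocyte-like cells 1.90 and 1.09% against 2.06 and 1.93%. Proximal tubule-like cells went the other way, at 15.1 and 12.8% against 4.75 and 5.63%. A larger share of one class lowers the shares of the others, so these values do not give numbers of cells per kidney. The intervals cover counting error only, the 2 Trim28f/f mice differed widely in NPC-like cells, and the exact two-sided permutation p was 0.333 for each share, the smallest that 2 mice against 2 allow.

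In CPM of all UMIs of the mouse, Wt1 was at 43.6 and 42.5 in the Trim28Δ/Δ and 103 and 101 in the Trim28f/f mice. NPC-like cells gave 10.6 and 10.8 of these against 29.7 and 51.8, which was 50.9% of the difference between the group means (31.9% without mouse 4 and 70.4% without mouse 3). Early podocyte-like cells gave 9.11 and 12.8 against 26.5 and 20.8 (21.5% of the difference). Podocyte-like cells gave 10.6 and 3.82 against 19.1 and 9.79 (12.3%, or 4.45 to 19.9% without 1 mouse). Early proximal tubule-like cells gave 2.98 and 2.94 against 10.4 and 7.46 (10.1%), at a CPM within the class that lay below that of free RNA on average. Podocyte-like cells of mouse 1 thus gave slightly more Wt1 than those of mouse 4, and in this class alone of the 4 the groups overlapped.

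The share of a mouse's UMIs held by each class and the CPM within the class (its level) were then exchanged between the groups. This was arithmetic on the class means, with no test. These shares are of UMIs and are not the shares of cells given above, since depth differs between classes. Wt1 came to 42.7 CPM with Trim28Δ/Δ levels and shares and to 106 CPM with Trim28f/f levels and shares. With Trim28f/f levels and Trim28Δ/Δ shares it came to 57.5 CPM, and with Trim28Δ/Δ levels and Trim28f/f shares to 84.6 CPM. Without mouse 4 these exchanges gave nearly the same value, 66.2 CPM with Trim28Δ/Δ shares and 68.8 CPM with Trim28Δ/Δ levels. Without mouse 3 they lay furthest apart, at 48.8 CPM with Trim28Δ/Δ shares and 100.4 CPM with Trim28Δ/Δ levels, beside 101 CPM with Trim28f/f levels and shares. For Magi2 the same values were 12.1 and 22.6 CPM at the ends, with 17.3 CPM for Trim28Δ/Δ shares and 16.3 CPM for Trim28Δ/Δ levels, and podocyte-like cells gave 85.9% of its difference. Nphs1 went from 24.8 to 18.0 CPM with the shares and to 20.5 CPM with the levels exchanged.

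**Figure D3:**
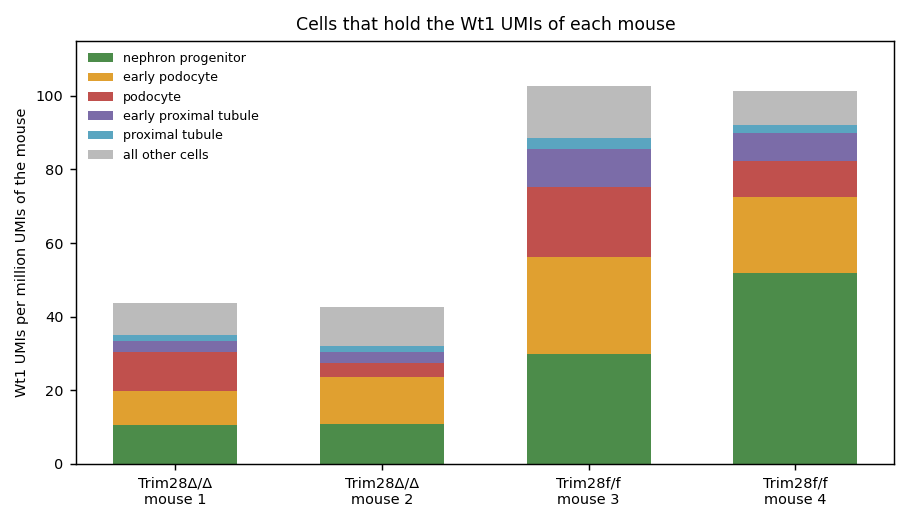
Wt1 UMIs of each mouse in CPM of its total UMIs, stacked by the cell class that held them. NPC-like cells (green) give 10.6 and 10.8 in the Trim28Δ/Δ mice against 29.7 and 51.8 in the Trim28f/f mice, and podocyte-like cells (red) overlap between the groups.

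Within podocyte-like cells none of the 8 genes was called, where 0.291% of the 5489 genes tested were. Only Magi2 had an unadjusted p under 0.05, and DESeq2 also called none. Magi2 came closest. Its TMM-scaled level was 476 and 424 CPM in the Trim28Δ/Δ mice against 911 and 1150 CPM in the Trim28f/f mice (log2 change -1.19, SE 0.25, edgeR adjusted p = 0.0691). The groups were well apart, and thinned to 6800 UMIs a cell 75.0 and 83.3% of the Trim28Δ/Δ cells held Magi2 against 98.1 and 100% of the Trim28f/f cells. It was not called with DESeq2, without mouse 1 (adjusted p = 0.0707) or without mouse 2 (adjusted p = 0.153). It passed without mouse 3 or without mouse 4, fits in which the Trim28f/f group is a single mouse assumed to vary like the Trim28Δ/Δ mice, without cells marked as doublets by Scrublet (adjusted p = 0.0422), with no filter on low genes (adjusted p = 0.00127) and with all variable genes used for clustering (adjusted p = 0.0358). In the order of these settings 0.583, 5.38, 0.472, 0.714 and 0.279% of all genes were called.

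Wt1 itself overlapped between the groups there, at 1005 and 663 against 1361 and 893 CPM (log2 change -0.43, SE 0.28, adjusted p = 0.811). Nphs1 was at 1132 and 689 against 1349 and 1249.7 CPM (log2 change -0.51, SE 0.27) and Rhpn1 at 449 and 301 against 570 and 542 CPM (log2 change -0.55, SE 0.26), both with the Trim28Δ/Δ mice below and neither called (adjusted p = 0.739 and 0.659). Both ko mice lay below both wt mice for 17.7% of all genes tested in this class. The log2 changes of Podxl (-0.24), Ptpro (-0.09) and Synpo (0.15) were each smaller than their SE, and Clic5 had a log2 change of 0.37 (SE 0.28) with overlapping groups. Podocyte-like cells had median depths of 9361 to 10597 UMIs a cell, and with only 18 cells in mouse 2 they gave 207640 UMIs there. In counts simulated for this comparison 8.33% of genes changed 2-fold and 78.8% of those changed 4-fold were called. The simulation used a fixed spread that was not estimated from these sums and changed only genes above a minimum count. Its rates are therefore not the power of these data.

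The change of Magi2 in podocyte-like cells was compared with that in NPC-like cells. In NPC-like cells its TMM-scaled level was 24.3 and 13.5 CPM in the Trim28Δ/Δ mice against 9.98 and 13.7 CPM in the Trim28f/f mice, an overlapping pair of groups with a log2 change of 0.61 (SE 0.36, adjusted p = 0.668). The log2 change in podocyte-like cells minus that in NPC-like cells, tested in 1 fit with the mouse as a block, was -1.87 (SE 0.33, edgeR adjusted p = 0.0206). It was the only one of the 8 genes called, and 0.176% of 9640 genes were called. The call did not hold without mouse 1 (-1.56, adjusted p = 0.125) or without the block (-1.83, adjusted p = 0.329), and the NPC-like level rests on 21 to 95 Magi2 UMIs a mouse, with free RNA at 7.27 CPM. Thinned, 16.3 and 15.8% of Trim28Δ/Δ NPC-like cells held Magi2 against 5.39 and 8.75% of Trim28f/f cells. Ptpro (-1.53, SE 0.46) and Podxl (-1.04, SE 0.30) had the same sign but were not called (adjusted p = 0.285 and 0.250), with NPC-like levels of Podxl below and of Ptpro around those of free RNA (32.2 and 10.4 CPM), and Wt1 differed by -0.16 (SE 0.24). Between podocyte-like and early podocyte-like cells the Magi2 difference was -1.12 (SE 0.33, adjusted p = 0.269) and between early podocyte-like and NPC-like cells -0.66 (SE 0.42, adjusted p = 0.745). None of the 8 genes was called in either of these pairs, beside 0.296% and 0.246% of all genes.

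**Figure D4:**
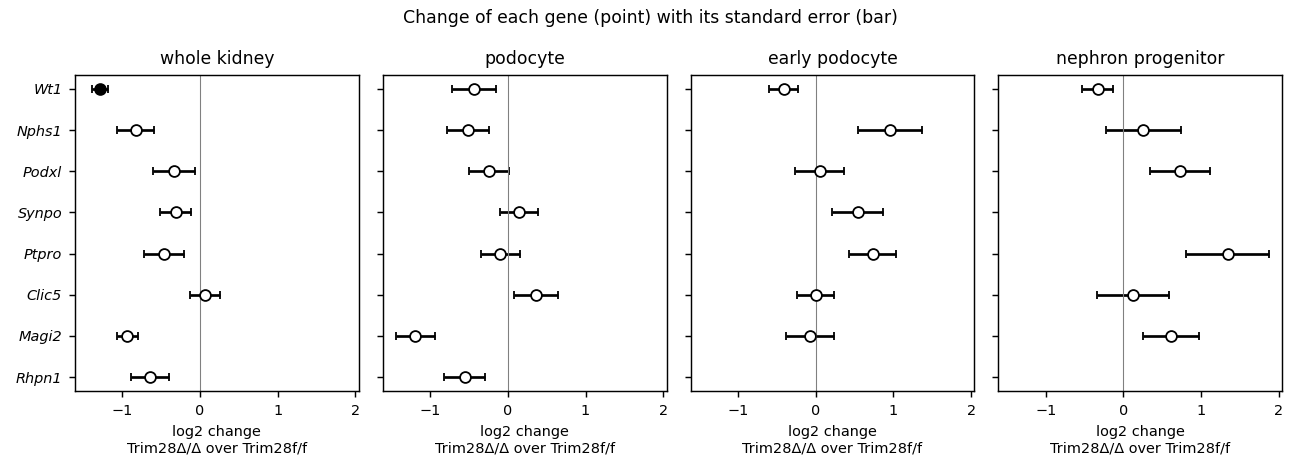
Log2 change of each gene (Trim28Δ/Δ over Trim28f/f, edgeR) in all cells and in 3 classes, with its standard error as a bar and a filled point where the adjusted p was under 0.05. Wt1 in all cells, at -1.29, is the single filled point, and Magi2 lies at -1.19 in podocyte-like but at 0.61 in NPC-like cells; genes too low to test are left out.

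In early podocyte-like cells none of the 7 genes tested was called, beside 0.268% of 10076 genes. DESeq2 also called none, and 2 of them, Nphs1 and Ptpro, had an unadjusted p under 0.05. Wt1 was at 351 and 411 against 591 and 424 CPM (log2 change -0.41, SE 0.19, adjusted p = 0.761), with the Trim28Δ/Δ mice below. Before TMM scaling mouse 2 (437 Wt1 UMIs of 1057020) was level with mouse 4 (726 of 1760773). Without mouse 4 the log2 change was -0.63, in a fit against mouse 3 alone in which the spread comes from the Trim28Δ/Δ mice. This was one end of the range over fits without 1 mouse, and the other end was a smaller fall than -0.41. Nphs1 was at 24.3 and 75.3 against 29.4 and 23.4 CPM (log2 change 0.96, SE 0.41, adjusted p = 0.741), a difference that rested on mouse 2, since without it the log2 change was -0.12. Ptpro was at 32.4 and 54.6 against 28.04 and 25.1 CPM (log2 change 0.73, SE 0.30, adjusted p = 0.716), with the Trim28Δ/Δ mice above. With another method of tag assignment the sign of the Ptpro change turned. How many of all genes in this class showed the order of Wt1 or that of Ptpro is not given here. Magi2 was level, at 23.0 and 24.5 against 27.1 and 22.8 CPM.

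In NPC-like cells, where Cre acts and where 1.67% of 11281 genes were called, none of the 6 genes tested was, by edgeR or by DESeq2, and only Ptpro had an unadjusted p under 0.05. Wt1 was at 284 and 237 against 396 and 260 CPM (log2 change -0.33, SE 0.20, adjusted p = 0.676), and mouse 1 lay above mouse 4. The value turned on single mice, since the log2 change was 0.01 without mouse 3 and -0.62 without mouse 4. Either fit leaves a single Trim28f/f mouse with no spread of its own, so its p is not given. The clusters of the class differed in share and in level. The Cited1-led cluster held 16 of 49 and 33 of 76 NPC-like cells in the Trim28Δ/Δ mice and 80 of 204 and 206 of 377 in the Trim28f/f mice. There Wt1 was at 153 and 118 against 276 and 227 CPM (log2 change -0.92, SE 0.23, adjusted p = 0.103). In the cluster with Wnt4 it was at 327 and 300.4 against 455 and 283 CPM (log2 change -0.23, SE 0.21). Podxl (log2 change 0.73, SE 0.38) and Ptpro (1.34, SE 0.53) were low in NPC-like cells, at 28.02 and 21.9 against 20.8 and 9.94 CPM and at 8.41 and 14.8 against 7.28 and 2.74 CPM, and neither was called (adjusted p = 0.606 and 0.411). The sign of the Podxl change turned without cells marked by Scrublet.

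In 15 of the 16 named classes at least 1 of the 8 genes was high enough to test, which gave 72 tests in all. A single one was called, that of Wt1 in proximal tubule-like cells, at 7.88 and 8.73 against 40.3 and 24.2 CPM (log2 change -1.96, SE 0.27, adjusted p = 0.0181), where 0.788% of 11671 genes were called and 0.197% were called lower. The groups did not overlap, an order whose share over all genes of this class is not given here. The counts were small, 46 and 51 Wt1 UMIs in 223 and 211 Trim28Δ/Δ cells and 136 and 77 in 122 and 99 Trim28f/f cells. The levels lay below that of free RNA. Thinned, 7.17 and 5.21% of cells held Wt1 against 12.3 and 14.1%. The call was lost without any 1 of the 4 mice (adjusted p 0.111 to 0.311) and without cells marked by Scrublet (adjusted p = 0.0812).

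Nphs1 was at 2.23 and 3.43 against 7.11 and 10.4 CPM (log2 change -1.62, SE 0.37), Podxl at 4.62 and 4.80 against 18.7 and 10.1 CPM (-1.61, SE 0.34) and Ptpro at 1.03 and 1.71 against 6.82 and 2.52 CPM (-1.76, SE 0.57), none called (adjusted p = 0.106, 0.0833 and 0.249) and each below its level in free RNA (11.8, 32.2 and 10.4 CPM) in all 4 mice. Synpo had a log2 change of -1.64 (SE 0.63, adjusted p = 0.334), Magi2 of -0.43 (SE 0.26) and Rhpn1 of -0.20 (SE 0.31). Synpo and Rhpn1 each reached at most 7.01 CPM there, below their levels in free RNA (11.1 and 17.4 CPM). The Synpo change rests on 12, 5, 8 and 22 UMIs in mice 1 to 4. Clic5, above its free RNA level of 14.0 CPM, was at 42.3 and 34.6 against 32.3 and 39.6 CPM, with overlapping groups (log2 change 0.10, SE 0.18). All 9 podocyte markers had a lower mean there in the Trim28Δ/Δ mice, with a summed level of 817 and 828 against 978 and 821 CPM, most of it Npnt, and no marker was at 0. Of the 7 early podocyte markers 5 were lower, with a summed level of 103 and 109 against 226 and 234 CPM, and Olfm3 was at 0 in both Trim28f/f mice. All 6 NPC markers were lower too, at a summed 31.7 and 29.5 against 50.7 and 57.0 CPM, with Meox1 at 0 in mouse 2. The part of such markers in the Wt1 result was not tested. In early proximal tubule-like cells Wt1 was at 51.5 and 44.5 against 85.4 and 82.4 CPM, close to or below the 81.4 CPM of free RNA. It was not called there (log2 change -0.81, SE 0.17, adjusted p = 0.126, with 0.364% of all genes called).

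Among 4 lists of related genes, that of transcription factors and partners of Wt1 gave calls in NPC-like cells. There 1 of 13 rose and 2 fell, beside 1.67% of all genes called in either direction. The lists were chosen with earlier results of these data known, so this count is a description of the list and no test of it. Basp1, a membrane and nuclear protein that acts with Wt1 as a corepressor, rose from 79.8 and 75.1 CPM in the Trim28f/f to 179 and 175 CPM in the Trim28Δ/Δ mice (log2 change 1.19, SE 0.16, adjusted p = 0.00775). Osr1 fell from 62.0 and 50.6 to 22.4 and 18.7 CPM (-1.46, SE 0.25, adjusted p = 0.0199) and Pax2 from 281 and 350 to 155 and 167 CPM (-0.97, SE 0.16, adjusted p = 0.0165). Osr1 and Pax2 are transcription factors of the early kidney lineage. In these 3 genes the groups did not overlap, an order whose share over all NPC-like genes is not given here. The list's median log2 change was -0.01, beside -0.01 over all genes tested. No gene of the list was called in podocyte-like (9 tested), early podocyte-like (13) or all cells (13). Over all cells 12 of the 13 log2 changes were below 0 (median -0.48, beside -0.02 over all genes tested), and 6 had an unadjusted edgeR p under 0.05. The share of all genes with a change below 0 is not given here. In proximal tubule-like cells 1 of 10 tested was called, Tcf21, a transcription factor of podocytes and stroma, at 4.28 and 2.91 against 16.6 and 12.6 CPM (log2 change -2.01, SE 0.31, adjusted p = 0.0289), named after its values were seen and below its level in free RNA (46.9 CPM) in all 4 mice.

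The 3 structural lists had no call in podocyte-like, early podocyte-like, NPC-like or all cells. Of 14 slit diaphragm proteins and adaptors, 12 were tested in podocyte-like cells, with a median log2 change of -0.13. The adaptor Cd2ap was at 866 and 730 against 933 and 694 CPM (-0.03, SE 0.25). Of 13 actin cytoskeleton genes, 12 were tested there (median -0.14). Actn4, an actin crosslinker, had a log2 change of -0.45 (SE 0.28) and Arhgap24, a GTPase-activating protein, of -0.35 (SE 0.24). All 12 genes of the glomerular basement membrane and its receptors were tested (median 0.02), with dystroglycan (Dag1) at -0.01 (SE 0.29) and integrin beta chain Itgb1 at -0.16 (SE 0.24). In NPC-like cells the same basement membrane list had a median of 0.38, beside -0.01 over all genes tested. There 0 of 12 changes were below 0, 4 had an unadjusted edgeR p under 0.05, and no gene was called. The share of all genes with a change below 0 is not given here.

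The genes whose pattern over the class sums was most like that of Wt1 were sought over 64 sums (16 classes in 4 mice) and 12534 genes with at least 10 CPM in a class, by Pearson's r of log2(CPM + 1), as a description. The sums share their pool and differ in depth. Closest to Wt1 was Wt1os (r = 0.948), the antisense gene at chr2:105076538-105126510, which starts 18 bases before Wt1 and runs the other way on the minus strand. Crb2 (0.900), Ndnf (0.891), Lmx1b (0.871) and Zbtb7c (0.861) followed. Of these, Crb2 is also in the list of slit diaphragm genes and Lmx1b in that of transcription factors and partners of Wt1. The others of the 8 ranked lower, from Ptpro (0.76) to Synpo (0.578). Over all cells Wt1os was at 6.49 and 5.53 against 10.5 and 15.4 CPM (log2 change -1.10, SE 0.24, edgeR adjusted p = 0.107). Closest to Nphs1 were Med24 (0.903), Ddn (0.892), Myl7 (0.886), Gja3 (0.885) and R3hdml (0.875), and Rhpn1 (0.841) was the closest of the 8.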

How the data were processed

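The pool was sequenced as 3′ droplet libraries of genes and of multiplexing tags. The authors deposited raw UMI counts per feature and barcode, made with Cell Ranger (6.0.0 in the processing notes, an older release in the file header, builds GRCm38 and mm10), with no selection of cells. The depth is 28545996, 34053609, 49372780 and 34831435 UMIs in mice 1 to 4. Cells were barcodes of at least 6890 UMIs and 200 genes with at most 10% mitochondrial UMIs (19273 cells). Tags were assigned with HTODemux in Seurat 5.3.0, using k-means after clara proved unstable, a choice made after the data were seen. Of these cells 7452 carried a single tag of the 4 mice, 5130 several tags, 2326 none and 4365 a tag outside the list. Doublets with several tags were thus removed, and Scrublet (scanpy 1.11.5), which marked 6.94% of the cells kept, was an alternative. Cells were clustered with sctransform 0.4.2, 30 components and resolution 0.8, without the 8 genes and the 4 lists, and named by markers with thresholds set after the clusters were seen. Cells in 3 unnamed clusters (1271) enter the sums over all cells. Of a pair of clusters, 167 of 168 collecting duct-like and 82 of 84 early distal tubule-like cells came from mouse 3.

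UMIs were summed per mouse and class. The mouse was the replicate. edgeR 4.0.16 (quasi-likelihood, TMM, filterByExpr, Benjamini-Hochberg over all genes tested, called under 0.05) compared 2 mice with 2 in classes of at least 10 cells per mouse, and shares were compared with exact permutation tests. DESeq2 1.42.0 was an alternative. In simulated counts for NPC-like sums (11097 genes), with the same fixed spread and minimum count, 11.5% of 2-fold and 79.8% of 4-fold changes were called. The genes and lists were chosen with earlier results of these data known. Beyond the 8 genes and Trim28, the text names list genes called in podocyte-like, early podocyte-like, NPC-like or all cells, otherwise the 2 of each list highest in podocyte-like cells, and the 5 genes most like Wt1 and Nphs1. A gene that this rule names is not reported here. Confidence intervals cover counting error only.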

Additional observations from a re-analysis of the deposited data

Results flagged for a closer look

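Magi2 was singled out because its change differed between podocyte-like and NPC-like cells. The log2 change in podocyte-like cells minus that in NPC-like cells was -1.87 (SE 0.33, edgeR adjusted p = 0.0206, mouse as a block). In podocyte-like cells both Trim28Δ/Δ mice lay below both Trim28f/f mice, and in NPC-like cells the groups overlapped. The call did not hold without the block (adjusted p = 0.329) or without mouse 1 (adjusted p = 0.125), and the differences of Magi2 between podocyte-like and early podocyte-like cells (-1.12) and between early podocyte-like and NPC-like cells (-0.66) were not called (adjusted p = 0.269 and 0.745).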

How the results depend on the processing

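Over all cells, 3 of the 8 genes were called with DESeq2 and 3 with no filter beyond 1 count, and 0 to 5 when 1 mouse was left out. The Wt1 change there ranged from -1.30 to -1.27 without 1 mouse. In podocyte-like cells 1 gene, Magi2, was called with no filter, without cells marked by Scrublet and with all variable genes used for clustering. In proximal tubule-like cells the count was 0 with no filter and without cells marked by Scrublet. The Wt1 change ranged without 1 mouse from -0.62 to 0.0054 in NPC-like, from -0.63 to -0.15 in early podocyte-like and from -2.27 to -1.55 in proximal tubule-like cells (-1.88 and -2.03 without mouse 1 and mouse 2), where it was -1.94 with no filter (adjusted p = 0.387) and -1.68 without cells marked by Scrublet. Without the mouse as a replicate block the Magi2 difference between podocyte-like and NPC-like cells was -1.83 and 0 genes of the 8 were called. Without 1 mouse the Magi2 difference ranged from -2.19 to -1.56. Signs also turned for Clic5 over all cells (-0.21 and -0.00064 without 1 mouse), Synpo (-0.027) and Ptpro (0.060) in podocyte-like cells without 1 mouse, Ptpro there with a minimum of 2500 UMIs (0.048) and with clara (0.00078), Podxl in NPC-like cells without cells marked by Scrublet (-0.22), Nphs1 (-0.12) and Magi2 (0.058) in early podocyte-like cells without 1 mouse, Magi2 there with a minimum of 2500 UMIs (0.23), Ptpro there with clara (-0.013), and the Wt1 difference between podocyte-like and NPC-like cells without 1 mouse (0.0039). The clara setting was added after seeing the data. Where 1 mouse was left out, the lone mouse of its group was assumed to vary like the other group, so a call gained there says nothing on the spread within the smaller group. The causes were not tested. Counts of genes called without 1 mouse are not given, since such a fit leaves a single mouse in its group. Genes called over all cells numbered 83 in the main setting, 786 with DESeq2, 1119 with no filter, and 30 to 34 with other tag or UMI rules. In podocyte-like cells they numbered 16, against 3 with DESeq2 and 109 with no filter. In NPC-like cells they numbered 188, against 112 and 473, in early podocyte-like cells 27, against 181 with no filter, and in proximal tubule-like cells 92, against 0 with no filter and 148 with clara.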
